A study of Rattus norvegicus with 9 samples.

Results

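Ubiquitin ligases, deubiquitinases and their partner enzymes and adaptors were followed in rat hearts. The genes were chosen by symbol, from families of E1 and E2 enzymes, ligases and their adaptors, and deubiquitinases. The symbols matched 120 of the 5760 genes listed in either of 2 tables of cardiac RNA-seq values, after 1 matching gene was left out. Of them, 84 were in the Cal and Model table (1.96% of its 4288 genes), 56 in the Cal and Con table (2.28% of its 2458 genes) and 20 in both. By class there were 27 Rnf and Cbl RING ligases, 26 Trim genes, 19 F-box proteins, 16 Klhl adaptors, 12 E2 enzymes, 12 deubiquitinases, 6 Asb adaptors, 1 E1 enzyme and 1 cullin, and no Ube3, Ube4, Nedd4 or Mdm gene was listed. Some of these symbols stand for other functions. Uba7 and Ube2l6 handle ISG15, Ube2f handles NEDD8, Usp54 is regarded as catalytically inactive, and Trim14, Trim16 and Trim44 have no RING domain.

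Ubiquitin is a small protein that is joined to other proteins by a relay of enzymes. An E1 enzyme activates it, an E2 enzyme carries it, and an E3 ligase picks the target. Ubiquitin chains send many targets to the proteasome, and deubiquitinases remove them. RING ligases (the Rnf, Trim and Cbl families) bind an E2 directly, whereas F-box, Klhl and Asb proteins are adaptors that bring targets to cullin ligases. In striated muscle the ligases Fbxo32 (atrogin-1) and Trim63 (MuRF1) are known for protein breakdown during atrophy, and interferons induce many Trim ligases together with the enzymes that attach the ubiquitin-like protein ISG15.

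The hearts came from male Sprague Dawley rats, 3 animals in each of 3 groups, drawn at random from larger groups, with the age not given in the sources used here. In Model rats the left anterior descending coronary artery was ligated to induce heart failure, Cal rats had the same ligation and then 80 mg/kg of calycosin (Cal, a plant isoflavone) per day, and Con rats had a sham operation without ligation. Treatment lasted 28 days, and rats not given Cal received distilled water. The RNA came from cardiac tissue, in which fewer cells of a type and less RNA per cell cannot be told apart. The part of the heart sampled is not given in the sources used here.

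Values are normalized counts, that is, reads on a gene divided by 1 size factor per library. The tables list genes already selected by the significance threshold of the deposited fit. The genes described here were thus listed because of the contrast that is tested again below, and unlisted genes were not analysed. The second table was deposited for the model and sham groups, but its sample columns are headed Cal and Con, and the reads in its Cal columns equal those of the first table in 986 of 986 shared genes. The mean columns exchange the names. In the first table the mean named Cal equals the mean of the columns headed Model in 4288 of 4288 genes, and the mean named Model equals that of the columns headed Cal. In the second table the mean named Model equals that of the columns headed Cal in 2458 of 2458 genes. Libraries are therefore called Cal-headed, Model-headed and Con-headed below, after their sample columns. By the mean columns every direction given between Cal-headed and Model-headed libraries would read the other way, and Cal-headed libraries would be Model in the second table. Reads on listed genes ranged from 2860826 to 3998471 per library in the first table and from 3270460 to 4659882 in the second, and reads on the genes described here from 45087 to 94090.

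Of the 84 genes in the Cal and Model table, 45 passed the test (53.6%), which asked for an adjusted p under 0.05 by limma and for a log2 fold change of more than 1 in size. Of these, 10 were higher and 35 were lower in the Cal-headed libraries. Among all listed genes 60.1% passed, 28.4% higher and 31.6% lower, so calls were no more frequent among these genes than in the table. Calls in the lower direction made up 41.7% of the 84 genes. On adjusted p alone all 84 passed, 26 higher and 58 lower, as did 99.6% of all listed genes, 46.0% higher and 53.7% lower. The median log2 fold change, Cal-headed over Model-headed, was -0.77 against -0.52 over all listed genes. The values of the groups did not overlap in 82 of the 84 genes, against 98.2% of all listed genes. The split depended on scaling. With median-ratio, quantile and TMM scaling, each computed again from the listed genes, the median of all genes moved up by 0.30, 0.42 and 0.20 on the log2 scale, and the split became 19 higher and 27 lower, 16 and 27, and 16 and 31. The share of calls that were higher was 22.2% as first scaled and 41.3%, 37.2% and 34.0% with these scalings. Over all listed genes that share moved too, from 47.34% to 61.12%, 54.24% and 56.05%, and was above that of these genes each time.

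Rises and falls between Model-headed and Cal-headed libraries were counted by class, as first scaled. The shares over all listed genes were 28.4% higher and 31.6% lower. In the Trim family 13 of 19 listed genes fell and 1 rose, and among RING ligases 11 of 20 fell and none rose. Of the 7 deubiquitinases 3 fell and none rose. Klhl adaptors had 4 rises and 1 fall among 11, F-box proteins 4 rises and 2 falls among 12, and Asb adaptors 1 rise and 2 falls among 6. The E1 enzyme fell, as did 2 of 8 E2 enzymes. These counts depended on the scaling. With median-ratio scaling RING ligases had 2 rises and 9 falls, and Trim genes 3 and 11. Klhl adaptors then had 7 rises and 1 fall, and deubiquitinases 0 of either. With quantile scaling RING ligases had 2 rises and 7 falls, and with TMM scaling 1 and 10. No difference between classes was tested.

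**Figure D1:**
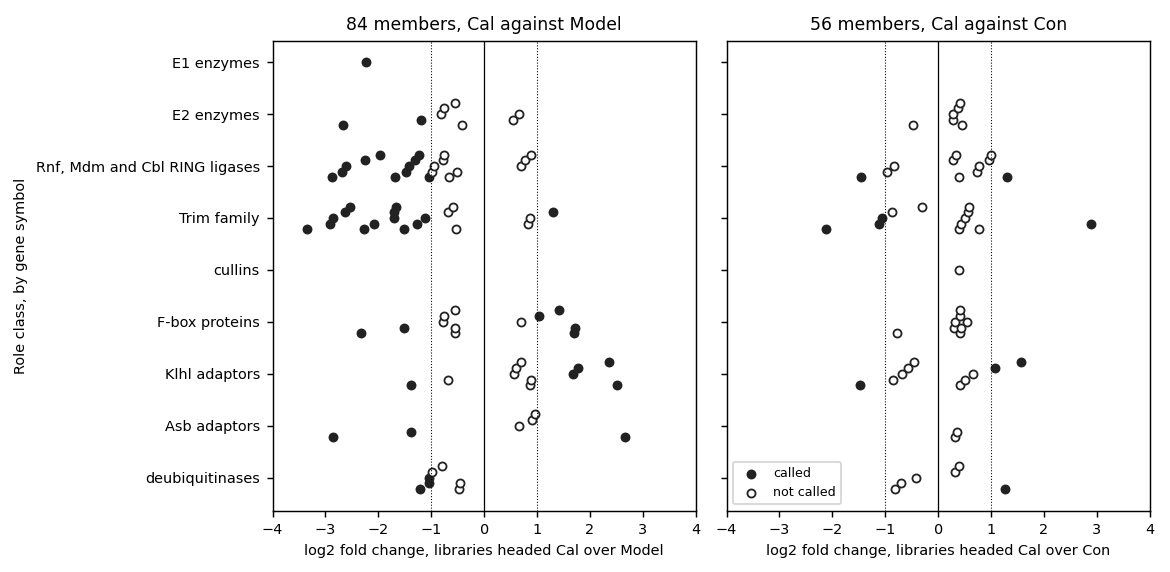
Log2 fold changes of single genes by class, on the horizontal axis, for Cal-headed over Model-headed libraries (left, 84 genes) and Cal-headed over Con-headed libraries (right, 56 genes). Each point is 1 gene from 3 libraries a group, filled points passed the test, dotted lines mark a log2 fold change of 1 in size, and the Trim and RING classes lie mostly left of 0 in the left panel, where values run from -3.35 to 2.67.

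Genes induced by interferon or taking part in ISG15 conjugation fell together. All 15 genes of that list were in the Cal and Model table, 14 fell, none rose, and the fifteenth, Rnf114, had a log2 fold change of -0.95. The median of the list was -2.23. Over all listed genes 31.6% fell. This list and the others were chosen with earlier results of these data known, and the listed genes were selected for this contrast. The joint fall is therefore a description and no test of the list. All 15 values were negative under every alternative tried. The number that fell was 14 as first scaled, 12 with median-ratio or quantile scaling and 13 with TMM scaling. It was 11 without the second Cal-headed library or without the second Model-headed library.

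A motif is printed first because interferon-induced genes often carry the interferon-stimulated response element, which contains the letters GAAA, any 2 bases and GAAA again. Rat promoters of RefSeq (build GRCr8, 250 bases before to 50 bases after the start) were found for 98 of the 120 genes and for 10 of the 15 on the list. The letters were searched on both strands and overlapping matches were allowed. They stood in 3 of the 98 promoters (3.06%) and in 1034 of all 27457 promoters (3.77%), so the share among these genes was near that of all promoters. On the list Trim21 alone of 10 held a match. The matched stretches of the 3 genes are shown with the matched letters in capitals, read along the strand of the gene (Trim21 and Trim26 minus, Ube2d3 plus). The 2 matches in Trim21 overlap and end 3 bases before the start, and the stretch printed is chr1:166399372-166399409. Those in Trim26 lie 198 to 183 bases before the start, in chr20:1736474-1736529, and that in Ube2d3 lies 247 to 238 bases before it, in chr2:226542944-226542976. A match is a description of letters, and the lack of one says only that they are not in this window.
Trim21: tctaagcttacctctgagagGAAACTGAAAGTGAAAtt
Trim26: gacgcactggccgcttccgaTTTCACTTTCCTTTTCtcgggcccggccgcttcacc
Ube2d3: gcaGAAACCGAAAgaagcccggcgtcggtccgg

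The ISG15 relay was listed at the E1 and E2 steps. Uba7, the E1 enzyme of ISG15, measured 1212, 2096 and 1757 normalized counts in the 3 Model-headed libraries and 437, 173 and 565 in the Cal-headed libraries. Ube2l6, its E2 enzyme, measured 2103, 3809.7 and 2725 against 492, 216 and 800.2, with the Model-headed libraries first here and below. In both genes every Cal-headed library lay below every Model-headed one. Uba7 fell by 2.23 on the log2 scale (SE 0.43, adjusted p = 0.00264 by limma) and Ube2l6 by 2.67 (SE 0.46, adjusted p = 0.00172). Herc6, the main ISG15 ligase of the mouse and not among the 120 genes, had a log2 fold change of -3.29.

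Rnf213 is a giant RING ligase with an ATPase core and a susceptibility gene for moyamoya disease. It measured 13597, 28173 and 16355 in the Model-headed and 2970.2, 1459.5 and 5487 in the Cal-headed libraries, without overlap. It fell by 2.68 on the log2 scale (SE 0.48, adjusted p = 0.00205 by limma). Without scaling for its great length, this 1 gene held 17.9%, 24.6% and 21.1% of the normalized counts of the 84 genes in the Model-headed libraries and 5.74%, 3.07% and 9.50% in the Cal-headed libraries. The gene lies at chr11:119393100-119487418 on the plus strand in the mouse coordinates of the table, whose build is not named there.

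Trim genes made up 10 of the 15 genes of the list. Trim21, a cytosolic antibody receptor with ligase activity, measured 979, 1406 and 956 in the Model-headed and 158, 108 and 325 in the Cal-headed libraries, and fell by 2.62 (SE 0.38, adjusted p = 0.000965 by limma). Trim25, which modifies the RNA sensor RIG-I, measured 2446, 4329 and 3466 against 658, 579 and 1278. Trim56, an antiviral ligase, measured 2182, 3955 and 2369 against 1168, 985 and 1752. The groups did not overlap in any of these 3 genes. Trim25 fell by 2.08 on the log2 scale. Trim56 fell by 1.11, and the call of Trim56 was lost with median-ratio, quantile and TMM scaling and without the second Cal-headed or the second Model-headed library. Trim14, an adaptor of the antiviral protein MAVS, fell by 1.71 at a mean of 87.7 in the Model-headed libraries.

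Of the 26 Trim genes, 11 lie within chr7:102557921-104507849 of the mouse coordinates. They include near-identical copies, so reads could have been split among Trim30a, Trim30b, Trim30c and Trim30d and among Trim12a, Trim12c and Trim5, and values of single copies are uncertain. Trim30d measured 925, 2241 and 812 in the Model-headed and 134, 43.2 and 266 in the Cal-headed libraries. Trim30a, known in mice as a brake on Toll-like receptor signalling, measured 3330.4, 6695 and 2406 against 551, 255 and 903. Both fell, by 3.35 and 2.90 on the log2 scale, and Trim34a fell by 2.85 and Trim12a by 2.28. Trim12c and Trim5 were the 2 genes of the 84 whose groups overlapped. Trim5 measured 57.2, 82.9 and 24.9 against 26.8, 14.1 and 20.5, and its adjusted p was 0.0291 by limma. The calls of Trim5 and Trim12c were each lost without the first Model-headed, the second Model-headed or the second Cal-headed library, and that of Trim5 also without the third Cal-headed library and with median-ratio scaling.

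The 3 other Trim genes that fell are named after their values were seen. Trim30b fell by 2.54 and Trim6 by 1.66, both in the chr7 stretch, and Trim26, whose promoter stretch is printed above, fell by 1.51 from 624, 1298 and 929.7 in the Model-headed to 325, 237 and 419 in the Cal-headed libraries. Trim16 was the Trim gene that rose, by 1.30, from 65.9, 89.0 and 77.6 to 192, 206 and 177. Trim7 and Trim35 were positive (0.82 and 0.87) and Trim27, Trim44 and Trim68 negative (-0.53, -0.59 and -0.68), and none of these 5 was called. Trim35 was called with TMM, median-ratio and quantile scaling (1.07, 1.17 and 1.35) and Trim7 with median-ratio scaling (1.12).

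**Figure D2:**
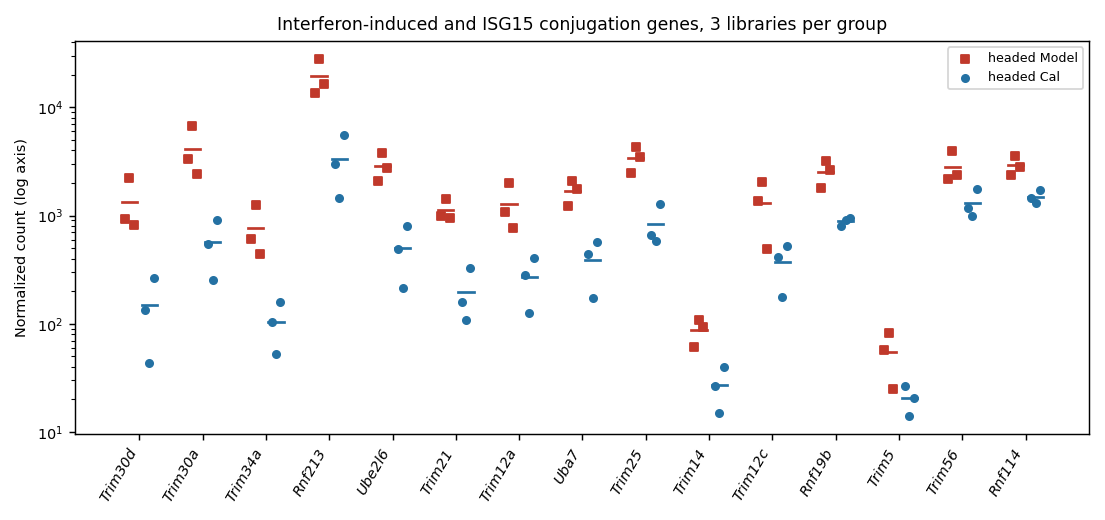
Normalized counts (log axis) of the 15 genes of the interferon and ISG15 list in the 3 Model-headed (squares) and 3 Cal-headed (circles) libraries, with bars at the group means. The second Model-headed library is the highest square for each gene, and the groups overlap in Trim12c and Trim5.

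The replicates of this list spread widely and in step. The second Model-headed library was the highest of its group in 15 of 15 genes. The second Cal-headed library was the lowest of its group in 14 and the third the highest in 14. Among the 69 genes off this list the same 3 counts were 37, 30 and 30. The summed level was 34108 to 64936 in the Model-headed libraries and 6407 to 15217 in the Cal-headed libraries, and the median coefficient of variation was 34.3% and 50.0%, against 23.4% and 9.47% over the 84 genes. Neutrophil markers moved the same way. Of 6, 5 were listed and fell, with sums of 803 to 962 in the Model-headed and 71.0 to 227 in the Cal-headed libraries, where Mpo was listed at 0, and Ly6g was not listed. Of 6 macrophage and monocyte markers 2 fell (Itgam and Ccr2), 2 rose (Lyz2 and Csf1r) and Cd68 had a log2 fold change of 0.81. No lymphocyte marker was listed. The part of these cells in the result was not tested.

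Other RING ligases also fell. Cblb, which down-regulates antigen and growth factor receptors, measured 708, 885 and 633 in the Model-headed and 174, 178 and 208 in the Cal-headed libraries. The replicates were close and the groups far apart, and Cblb fell by 1.98 (SE 0.17, adjusted p = 0.000201 by limma). It was the sole listed gene of 7 on the list for down-regulation of receptors and channels. Rnf125, which also acts on RIG-I, measured 739, 1323 and 685 against 90.4, 217 and 144 and fell by 2.62. Rnf19b, a ligase of natural killer and myeloid cells, measured 1797, 3196 and 2628 against 797, 910.5 and 956 and fell by 1.48, although its call was lost with quantile scaling.

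The other 7 RING ligases that fell are named after their values were seen. They were Rnf180 (-2.87), Rnf135 (-1.69), Rnf149 (-1.42), Rnf31 (-1.31), Rnf144b (-1.24), Rnf115 (-1.04) and Rnf225, which had at most 3 reads in any Cal-headed library and was at least 3.89-fold higher in the Model-headed libraries. The calls of Rnf31, Rnf144b and Rnf115 were lost with quantile scaling, those of Rnf144b and Rnf115 also with median-ratio scaling (-0.94 and -0.74), and that of Rnf115 with TMM scaling (-0.86). Rnf144b lost its call without the first and Rnf115 without the second Model-headed library, and Rnf225 lost it with a pseudocount of 10. Rnf31 (HOIP) is the catalytic part of the linear ubiquitin chain complex and Rnf135 (Riplet) acts on RIG-I. The 3 RING ligases on the positive side, Rnf207, Rnf130 and Rnf150, had log2 fold changes of 0.69, 0.77 and 0.89 and were not called. Rnf150 was called with TMM, median-ratio and quantile scaling (1.09, 1.19 and 1.10) and Rnf130 with median-ratio and quantile scaling (1.07 and 1.03). On the negative side Rnf122 (-0.98) and Rnf114 were called without the third Cal-headed or the first Model-headed library.

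Muscle genes mostly had the other sign. Of 19 ligases and adaptors of muscle, 8 were listed in the Cal and Model table. Of these 3 rose, 1 fell and 4 were not called, with 6 positive and 2 negative values. Over all listed genes 28.4% rose and 31.6% fell, and 46.0% were higher on adjusted p alone (limma). The sum of the 8 muscle genes was 10091 to 12739 in the Model-headed and 16675 to 16992 in the Cal-headed libraries. Cardiomyocyte markers give no reading here, since none of 10 was listed in this table. Endothelial markers were higher in the Cal-headed libraries, with 5 of 6 listed, 3 called and sums of 5889 to 7931 against 15186 to 15580. Both listed smooth muscle markers were positive (Acta2 0.55 and Myh11 0.60, not called), with sums of 2079 to 2306 against 3194 to 3440. Of 7 fibroblast markers 4 were listed, of which Col1a1 (1.38) and Col1a2 (1.01) rose, Col3a1 (0.85) and Dcn (-0.68) were not called, and the sums overlapped. No skeletal muscle marker was listed. The part of these cells in the result was not tested.

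Asb2, the cullin adaptor that targets filamins in muscle, had the largest positive fold change of the 84 genes. It measured 917, 1143 and 1991 in the Model-headed and 8183, 7820.5 and 8353 in the Cal-headed libraries. The lowest Cal-headed value was above every Model-headed one, and the third Model-headed library was the nearest. Asb2 rose by 2.67 on the log2 scale (SE 0.27, adjusted p = 0.000289 by limma). The gene lies at chr12:103321142-103356001 on the minus strand. Per kilobase of the deposited gene length it had the highest mean of these genes in the Cal-headed libraries, at 2292 normalized counts per kilobase, whereas Ube2l6 led the Model-headed libraries at 1442.

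Fbxo32 had the opposite sign. It measured 7297, 8243 and 4409 in the Model-headed and 2195, 2295 and 2287 in the Cal-headed libraries, so the Cal-headed libraries were tight and low and the Model-headed libraries high and spread. It fell by 1.51 (SE 0.23, adjusted p = 0.00119 by limma), and with quantile scaling the log2 fold change of -0.87 was no longer called. The gene lies at chr15:58175879-58214932 on the minus strand. Klhl38 was also negative, at -0.67, and was not called.

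Fbxo40 and Fbxl22 rose. Fbxo40, which targets the insulin receptor substrate Irs1 in muscle, measured 1998, 1929 and 1986 in the Model-headed and 4143, 4113 and 3930.2 in the Cal-headed libraries, a narrow range in both groups, and rose by 1.04 (SE 0.12, adjusted p = 0.000378 by limma). Fbxl22, an F-box protein of the sarcomere, measured 313, 374 and 824 against 1219, 1217 and 1235, with the third Model-headed library again the nearest, and rose by 1.41. Klhl40 (a thin-filament adaptor mutated in nemaline myopathy), Rnf207 (linked to cardiac repolarization) and Asb5 had log2 fold changes of 0.89, 0.69 and 0.66, and none of these 3 was called. Klhl40 was called with TMM and median-ratio scaling (1.05 and 1.19) and without the third Model-headed library (1.06).

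**Figure D3:**
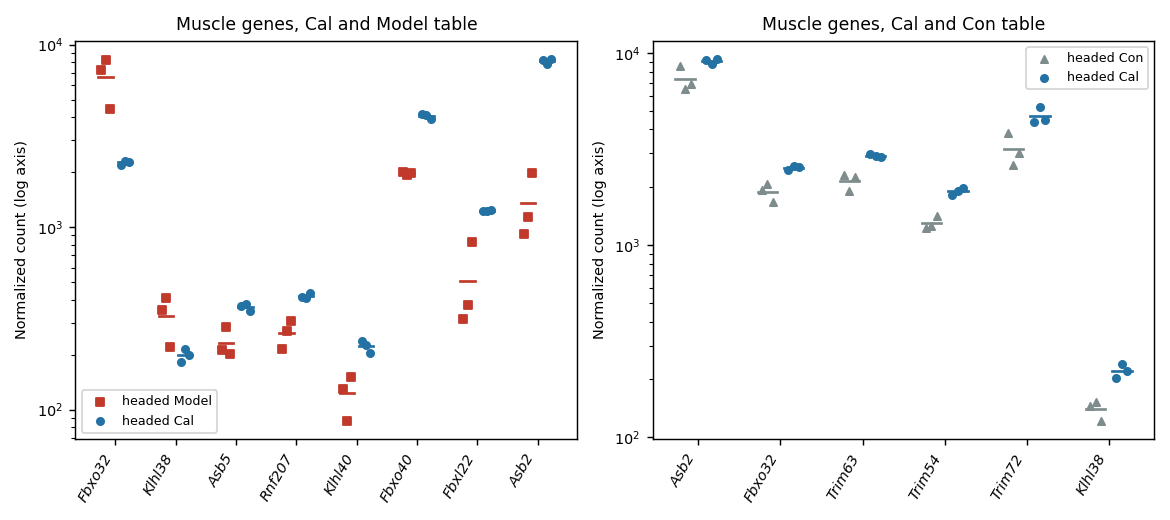
Normalized counts (log axis) of listed muscle ligases and adaptors in Model-headed (squares) or Con-headed (triangles) and Cal-headed (circles) libraries, 3 a group, with bars at the means. The left panel holds 8 genes, where Fbxo32 and Klhl38 are lower and the others higher in the Cal-headed libraries, and the right panel 6 genes that are higher by 0.32 to 0.67 on the log2 scale.

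Adaptors outside the muscle list moved in both directions. Fbxw7, the receptor subunit for cyclin E, Myc and Notch, measured 283, 277 and 169.6 in the Model-headed and 881, 724 and 736 in the Cal-headed libraries and rose by 1.71 (SE 0.22, adjusted p = 0.000666 by limma). Fbxo10 rose by 1.69. Klhl3, the adaptor for WNK kinases, measured 8.64, 24.4 and 37.4 against 131, 89.2 and 143 and rose by 2.50. Klhl4 rose by 2.37 and Klhl30 by 1.68. The groups did not overlap in any of these 5 genes, but the rule that names the leaders of a class asked for this. Nor did they overlap in 98.2% of all listed genes. Klhl32, named after its value was seen, rose by 1.78 from means of 18.6 in the Model-headed to 53.2 in the Cal-headed libraries, and lost its call without the third Cal-headed library.

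Of the adaptors that fell, Asb4 changed most. It measured 471, 965 and 632 in the Model-headed and 79.3, 93.9 and 96.5 in the Cal-headed libraries and fell by 2.87 (SE 0.27, adjusted p = 0.000242 by limma). Asb13 fell by 1.38 and Fbxw17 by 2.34. Klhl6, an adaptor known from B lymphocytes, measured 159, 137 and 149 against 78.4, 49.7 and 45.3 and fell by 1.38. These 4 genes come from 3 classes of adaptor. Among the adaptors that were not called, Asb1 (0.97) and Asb10 (0.90) were nearest to the limit on the positive side and Fbxo38 (-0.78) and Fbxl5 (-0.77), an iron-sensing F-box protein, on the negative side. Asb1 and Asb10 were called with TMM, median-ratio and quantile scaling and without the third Model-headed library, and Asb1 also without the second Cal-headed library. Klhl5 (0.87) was called with TMM and median-ratio scaling and Klhl25 (0.70) with median-ratio scaling.

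The 7 listed deubiquitinases had a median log2 fold change of -0.99. All 7 were lower in the Cal-headed libraries, except that Usp7 turned to 0.045 with quantile scaling (adjusted p = 0.77 by limma). Usp1, which acts on the DNA repair proteins Fancd2 and Pcna, measured 599, 766 and 369 in the Model-headed and 274, 239 and 204 in the Cal-headed libraries and fell by 1.22. Usp42 fell by 1.05 and Usp25 by 1.04. These are close to the limit of 1, and the 3 calls became 0 with median-ratio scaling, 1 with TMM or quantile scaling and 1 (Usp54) without the second Model-headed library, where Usp1, Usp42 and Usp25 had values of -0.98, -0.85 and -0.69. Usp7, which acts on Mdm2 and p53, had -0.45 and was the listed gene of 5 on the p53 list. Usp42 also lost its call without the second Cal-headed library. Usp54 (-0.99) was called also without the first or the third Cal-headed library, and Otud5 (-0.79) without the first Model-headed library. Of the E2 enzymes, Ube2e2 fell by 1.19, a call lost with median-ratio scaling, and the 6 that were not called ranged from -0.81 to 0.65, of which Ube2h was called with quantile scaling (1.10).

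Between Cal-headed and Con-headed libraries 5 of 56 genes rose and 5 fell in the Cal-headed libraries, while 29.0% of all genes in that table were called, 18.0% higher and 10.9% lower. On adjusted p alone (limma) all 56 passed, 38 higher and 18 lower, as did 99.8% of all listed genes, 60.6% higher and 39.2% lower. The median log2 fold change, Cal-headed over Con-headed, was 0.38 against 0.37 over all listed genes. The groups did not overlap in 54 genes, against 97.4% of all. With median-ratio, quantile and TMM scaling the median of all genes moved down by 0.28, 0.42 and 0.24. The share of calls that were higher then moved from 50.0% to 21.4%, 33.3% and 28.6%. Over all listed genes it moved from 62.22% to 43.35%, 47.35% and 46.93%. By the mean columns this would be a contrast of Model over Con.

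The 10 called genes came from 4 classes. Those named by rule were Rnf19b, which rose from 457, 412 and 348 in the Con-headed to 891, 1021 and 1066 in the Cal-headed libraries, a log2 fold change of 1.29 (SE 0.13, adjusted p = 9.19e-05 by limma), Klhl25 (1.57), Klhl6 (-1.48) and Trim5 (-1.06). Klhl6 measured 168, 191 and 174 in the Con-headed and 87.7, 55.8 and 50.5 in the Cal-headed libraries. Klhl25 measured 91.3, 75.6 and 110.3 against 315, 233 and 277, in the same order. The groups did not overlap in any of the 4. Rnf19b lost its call with quantile scaling, at 0.95. Trim5 lost it without the second Cal-headed or the second Con-headed library.

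The other 6 are named after their values were seen, and all had means under 100. Trim30c measured 9.32, 22.6 and 5.06 in the Con-headed and 53.6, 75.8 and 144 in the Cal-headed libraries and rose by 2.90. It is one of the copies whose reads could have been split. Usp27x rose by 1.27 and Klhl34 by 1.07. Trim59 fell by 2.12, Rnf152 by 1.47 and Trim62 by 1.12. With a pseudocount of 10 the calls of Usp27x, Klhl34, Trim62 and Trim5 were lost. Klhl34 also lost its call with TMM and median-ratio scaling (0.84 and 0.79) and Usp27x with median-ratio scaling (0.998). Klhl34 lost it too without the second Cal-headed or the third Con-headed library, and Trim62 without the third Cal-headed or the first Con-headed library. Without the first Cal-headed library 8 genes fell in place of 5, the added ones being Rnf144a, Trim65 and Otud1. Further falls with median-ratio scaling were Fbxl7, Klhl36, Rnf144a, Rnf219, Trim65 and Otud1, and with TMM scaling the same genes without Otud1. With quantile scaling they were Rnf144a, Trim65 and Otud1.

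The muscle genes of this table were on the positive side and below the fold limit. Trim63 measured 2304, 1917 and 2260.2 in the Con-headed and 2971, 2902 and 2859 in the Cal-headed libraries, a log2 fold change of 0.43. Trim72 (MG53), known for repair of the muscle cell membrane, measured 3811, 2596 and 3031 against 4373, 5208 and 4486, a log2 fold change of 0.59, and Trim54 (MuRF3) had 0.56. All 6 listed muscle genes, with Fbxo32, Asb2 and Klhl38, had values from 0.32 to 0.67 and groups that did not overlap. Groups did not overlap in 97.4% of all genes listed for this contrast either, so this does not set the muscle genes apart. The median of the 6 was 0.50, against 0.37 over all listed genes. Under quantile scaling Trim63, Fbxo32 and Asb2 turned to -0.027, -0.045 and -0.134, so their sign depends on the scaling chosen. That scaling was computed from the listed genes alone, of which 60.6% were higher on adjusted p (limma). It moved their median by -0.42 and cannot decide which sign is right. In the Con-headed libraries Asb2 had 2062, Trim72 1409 and Rnf187 1172 normalized counts per kilobase, the 3 highest levels of these 56 genes. Cardiac muscle markers Myh6 and Ryr2 were the listed 2 of 10 and had log2 fold changes of 0.29 and 0.31, just below the range of the muscle ligases. Of 6 endothelial markers 3 were listed, all negative, and 1 of them (Kdr) fell. Of 5 smooth muscle and pericyte markers 4 were listed, all negative (Acta2 -0.35, Myh11 -0.34, Pdgfrb -0.69 and Rgs5 -0.52) and none called. Of 7 fibroblast markers 3 were listed, all negative, of which Pdgfra fell by 1.21 and Tcf21 (-0.82) and Dcn (-0.34) were not called. Ckm, the listed 1 of 6 skeletal muscle markers, had 0.34, and Ccr2, that of 6 macrophage and monocyte markers, fell by 2.11. Their part in the result was not tested.

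Most other genes described here from this table had small positive values. Over all its listed genes 60.6% were higher on adjusted p alone (limma). Of 6 E2 enzymes 5 were positive, at 0.29 to 0.46, among them Ube2d3, a widely used E2 enzyme, which measured 4989.8, 5089.8 and 5313 in the Con-headed and 6264, 6458 and 6072 in the Cal-headed libraries. The groups of Ube2d3 did not overlap. Of 8 F-box proteins 7 were positive, and Fbxl7 was the exception at -0.78. Of 10 Klhl adaptors 5 were positive, and of 6 deubiquitinases 3. The cullin Cul9, a cytoplasmic partner of p53, had 0.40. The positive values of E2 enzymes and F-box proteins, 0.29 to 0.55, lie around the median of all listed genes. That median moved by -0.28 with median-ratio and by -0.42 with quantile scaling, so these small values depend on the scaling chosen. Both scalings were computed from the listed genes alone, so they cannot decide which sign is right. With quantile scaling the F-box genes Fbxw11 and Fbxo32 turned to -0.135 and -0.045.

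Other lists were sparse here. Of the interferon and ISG15 list 4 of 15 genes were listed, of which Rnf19b rose and Trim5 fell, while Trim56 (0.77) and Rnf114 (0.39) were not called and the groups of Rnf114 overlapped. S100a8 and S100a9, the 2 neutrophil markers listed, rose, with sums of 13.0 to 28.5 in the Con-headed and 48.5 to 183 in the Cal-headed libraries, and their part was not tested. Of the clock-linked genes Usp2 had 0.39 and Fbxw11 0.30, and both turned negative under quantile scaling, at -0.042 and -0.135. None of the p53 or receptor genes was listed, and no clock-linked gene was in the first table.

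The 20 genes in both tables can be set beside each other after the Con-headed values are put on the scale of the first table, by the ratio of the shared Cal-headed libraries (0.894). The 2 contrasts share those libraries, so the orders below are descriptions with no test, and Model-headed and Con-headed libraries were compared in no fit. For 7 genes the mean was lowest in Con-headed, between in Cal-headed and highest in Model-headed libraries (Fbxo32, Klhl38, Rnf114, Rnf122, Rnf125, Rnf19b and Trim56). For 6 it was lowest in Model-headed and highest in Cal-headed libraries (Asb2, Asb10, Klhl30, Trim7, Trim16 and Ube2o). For 4 it was lowest in Cal-headed and highest in Model-headed libraries (Trim5, Trim44, Ube2q1 and Usp1). In all 4 the Con-headed and Model-headed values overlapped. Con-headed values also overlapped the Cal-headed ones in Rnf114 and Rnf125 and the Model-headed ones in Asb10 and Ube2o. With quantile scaling the sign of Cal-headed over Con-headed libraries turned for Fbxo32, Rnf114, Asb2 and Asb10. Klhl25 was highest in Cal-headed libraries and lowest in Con-headed ones, Klhl6 and Klhl5 were highest in Con-headed ones, and their lowest group was Cal-headed for Klhl6 and Model-headed for Klhl5.

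On that scale Fbxo32 measured 1737, 1859.5 and 1501 in the Con-headed libraries, below its 3 Cal-headed values, which in turn lay below the Model-headed ones. Asb2 measured 7658, 5784 and 6154 in the Con-headed libraries, close under the Cal-headed values and far above the Model-headed ones. Rnf19b measured 408, 368 and 311, under the Cal-headed and the Model-headed libraries, and no 2 of its groups overlapped. For Rnf125 the Con-headed values of 78.3, 108 and 72.4 overlapped the Cal-headed ones, whereas the Model-headed libraries stood above both. For Klhl6 the Con-headed values of 150.0, 170.4 and 156 overlapped the Model-headed ones, and the Cal-headed libraries stood below both.

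**Figure D4:**
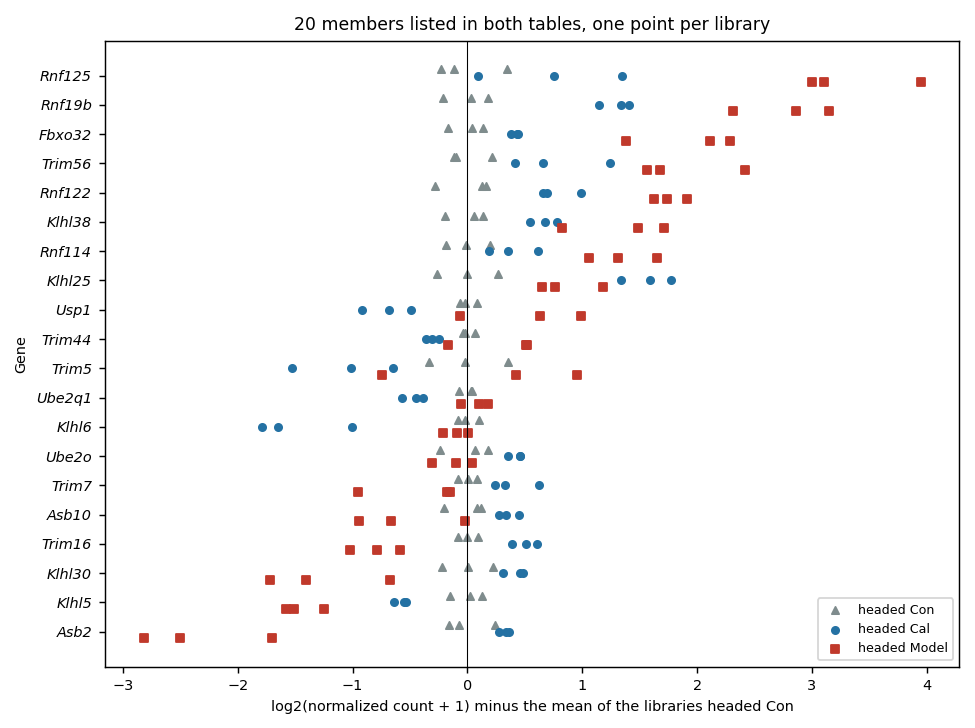
Log2(normalized count + 1) of the 20 genes in both tables, less the mean of the Con-headed libraries, for each of 9 libraries (triangles Con-headed, circles Cal-headed, squares Model-headed), with Con-headed values scaled by 0.894. Rnf125, Rnf19b and Fbxo32 have Model-headed points farthest to the right and Asb2 farthest to the left, and no test was made across the tables.

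Further genes of the pathway were counted from 3 lists of 118 genes (ubiquitin and NEDD8 genes, other deubiquitinases, other ligases). Of these, 21 were listed in the Cal and Model table, where 3 rose and 8 fell, while 28.4% of all its genes rose and 31.6% fell. Those that rose were Brca1, Cdc20 and Dtx3, with log2 fold changes of 2.56, 1.83 and 1.08. Brca1 and Cdc20 were low, with means of 14.0 and 16.1 in the Cal-headed libraries. Dtx3l, a ligase induced by interferon, had a log2 fold change of -2.69, Birc2 (cIAP1) -1.33 and the deubiquitinase Uchl1 -1.17. Ubb, a gene that encodes ubiquitin, had -0.57 and was not called. The Cal and Con table listed 12, of which 2 rose and 2 fell, while 18.0% of all its genes rose and 10.9% fell. Tnfaip3 (A20), which restrains NF-kB signalling, measured 114, 167 and 60.7 in the Con-headed and 5116, 5396 and 6145 in the Cal-headed libraries and rose by 5.71, and Birc3 (cIAP2) rose by 2.87. Skp2, an F-box protein, fell by 2.48 and Dtx4 by 1.22.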

How the data were processed

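RNA-seq of 9 hearts was analysed from 2 deposited tables. The authors aligned reads to rat reference sequences per the paper's methods and counted and normalized them with DESeq2. Per the labels the submitters' processing notes name Bowtie 0.12.2 and the builds mm8 and mm9, with no role given. The tables carry mouse Ensembl identifiers. The sample columns hold a deposited signal, read counts over a size factor of the library (0.820 to 1.17 and 0.950 to 1.07), which the authors computed table by table, and whole reads were recovered for 100% of values (tolerance 0.01 read). Total depth is unknown, since unlisted genes were not used here. Deposited group means served only to check headings, and the authors' fold changes, p-values and adjusted p-values were not used.

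Libraries were grouped by their sample column headings. Tests used limma 3.58.1 in R 4.3.3 with a trended variance on log2(normalized count + 1), which understates fold changes of low genes, adjusted by Benjamini-Hochberg over the listed genes of each table. A gene was called, and said to have risen or fallen, where the adjusted p was under 0.05 and the log2 fold change exceeded 1 in size. The design had planned the second test as model against sham, and it was made between the Cal and Con columns. Scripts were tested on simulated data. Genes were named by a rule: in each class, the top 3 called genes each way by fold change, if without overlap and averaging at least 100 in the higher group, genes in both tables, and the muscle, interferon and ISG15, clock, p53 and receptor lists. The genes and lists were chosen with earlier results of these data known. The alternatives were other pseudocounts (0.1 and 10), filters, scalings and thresholds, count fits with edgeR 4.0.16 or DESeq2 1.42.0, a replicate block and leaving out each library. The authors' size factors were kept for the count fits unless a scaling is named. A matching gene left out by the rule is not reported here.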

Additional observations from a re-analysis of the deposited data

How the results depend on the processing

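Other scalings changed the balance of calls most. Between Cal-headed and Model-headed libraries the 10 rises became 19 with median-ratio scaling, 16 with quantile normalization, 16 with edgeR and TMM factors and 26 with no fold change limit, and 9 to 13 when 1 library was left out. The 35 falls became 58 with no fold change limit and 29 to 37 when 1 library was left out. Between Cal-headed and Con-headed libraries the 5 rises became 3 with a pseudocount of 10, 3 with median-ratio scaling and 38 with no fold change limit, and 5 to 7 when 1 library was left out. The 5 falls became 3, 11, 8, 10 and 18 with a pseudocount of 10, median-ratio scaling, quantile normalization, TMM factors and no fold change limit, and 4 to 8 when 1 library was left out. Quantile normalization turned the sign of Usp7 (0.0451) in the first contrast, and of Trim63 (-0.0274), Fbxo32 (-0.0447), Usp2 (-0.0419), Asb10 (-0.108), Rnf114 (-0.108), Asb2 (-0.134) and Fbxw11 (-0.135) in the second. No other named gene turned. The cause was not tested, beyond the moves of the median of all genes given above.

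With the authors' size factors, edgeR and DESeq2 on the recovered reads each called 45 and 10 of these genes, the same genes as limma. The fit with the replicate number as a block gave 10 and 35, and 5 and 5, and changed no call. The numbers mark different animals, and same-numbered libraries deviated together in no fixed way (correlations of 0.11, -0.12 and -0.08 in the first table and -0.02, -0.12 and -0.14 in the second). Genes counted by near-identical copies, the selection of listed genes by the authors' own test, and the exchanged names of the mean columns limit all values. So do the mouse identifiers and coordinates, since the hearts were from rats. Which rat genes the reads came from was not tested. Where a library was left out, its group kept 2 samples.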

Other observations

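Further motifs were counted in the same rat promoters. The letters CACGTG, the E-box bound by circadian and Myc-family factors among others, stood in 8 of 98 promoters (8.16%) against 6.65% of all, and in 2 of the 9 muscle genes with a promoter, Fbxl22 and Asb2. The letters GTAAACA, a core bound by FoxO factors among others, stood in 2 of 98 (2.04%), Rnf123 and Trim63, against 3.76% of all. Both motifs were searched on both strands. These shares are descriptions of letters in 1 window, and nothing is drawn from them about the factors.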
